A study of Mus musculus with 12 samples.

Results

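Expression of 10 genes known to respond to stress hormone or to FoxO transcription factors was examined in the dorsal hippocampus of 12 mice. The genes were Fbxo32, Plin4, Fkbp5, Sgk1, Tsc22d3, Pdk4, Nfkbia, Mt1, Mt2 and Cdkn1a, found by symbol among the 24985 genes of the count table. All 10 passed the filter on low counts, which left 14742 genes for testing. Fbxo32 and Plin4 were selected on their levels over the same groups, and so their levels are described and carry no test, and the other 8 genes were tested. The mice were wild-type C57Bl6/J. They fell into 4 groups of 3, of which PBS-control and Tau-control ate standard chow while PBS-acetate and Tau-acetate ate chow with 5% acetate by weight. At 6 months of age 1 side of the hippocampus received PBS or 1 µg of tau aggregates purified from Alzheimer's disease brain (AD tau), and tissue came from the dorsal hippocampus of the right hemisphere 6 months later. All 4 groups had also been trained in fear conditioning and were killed the day after a remote recall test, so no group was free of handling and shock. The model is a seeded one, in which mouse tau aggregates after contact with the injected human material.

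Glucocorticoids bind the glucocorticoid receptor, which moves to the nucleus, sits on DNA at paired half-sites and turns on genes such as Fkbp5, Tsc22d3 and Per1. FoxO factors are held out of the nucleus when insulin and growth factor signaling through Akt is strong, and turn on genes such as Fbxo32, Pdk4 and Klf15 when it is weak. Both arms meet on several of the genes described here, and in the hippocampus many of them are expressed in glia and blood vessels as well as in neurons.

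The proximal promoters of the metallothionein genes Mt1 and Mt2 are shown first. These 2 were the tested genes edgeR called higher on acetate, though only in a diet effect averaged over injections and chosen after the values were seen. The promoter of Sgk1 is shown because it holds a paired glucocorticoid half-site beside a gene that did not pass any test. The sequences are RefSeq windows on GRCm38.p6, 250 bases before and 50 after an annotated start, all on the plus strand. They span chr8:94178839-94179138 for Mt1, chr8:94172368-94172667 for Mt2 and chr10:21993640-21993939 for the fifth of 6 Sgk1 windows. Capitals mark the metal response core (TGCACNC or TGCGCNC, on either strand) in Mt1 and Mt2 and the half-site pair (ACANNNTGT) in Sgk1.
Mt1: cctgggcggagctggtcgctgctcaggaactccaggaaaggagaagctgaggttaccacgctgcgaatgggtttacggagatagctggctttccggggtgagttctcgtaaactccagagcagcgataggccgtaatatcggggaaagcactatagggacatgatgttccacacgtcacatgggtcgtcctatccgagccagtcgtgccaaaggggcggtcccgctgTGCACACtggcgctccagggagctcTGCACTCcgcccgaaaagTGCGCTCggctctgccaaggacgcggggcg
Mt2: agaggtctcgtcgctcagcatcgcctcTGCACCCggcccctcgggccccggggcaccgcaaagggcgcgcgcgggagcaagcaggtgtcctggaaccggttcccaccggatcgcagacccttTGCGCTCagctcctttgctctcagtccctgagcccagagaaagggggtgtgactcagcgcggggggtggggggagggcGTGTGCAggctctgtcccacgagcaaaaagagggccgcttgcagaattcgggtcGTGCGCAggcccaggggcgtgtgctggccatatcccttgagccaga
Sgk1: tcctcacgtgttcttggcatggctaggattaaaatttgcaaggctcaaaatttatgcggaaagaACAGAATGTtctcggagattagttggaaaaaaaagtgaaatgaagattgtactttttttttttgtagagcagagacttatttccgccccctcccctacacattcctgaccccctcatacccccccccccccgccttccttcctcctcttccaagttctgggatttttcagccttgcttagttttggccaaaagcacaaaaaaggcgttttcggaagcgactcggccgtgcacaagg
The Mt1 window held 3 metal response cores, a number reached by 1.97% of the 32851 windows in the RefSeq table, and the Mt2 window held 4, reached by 0.517%. At least 1 core was present in 25.7% of all windows. The half-site pair, found in 6.85% of all windows, occurred once in the Mt1 window without overlap with a core and in 2 of the 6 Sgk1 windows, and 2 of the 9 genes with a window held it. A FoxO site (GTAAACA) was found in 3.65% of all windows and in none of the 17 windows of the 9 genes. Fbxo32 had no window in the table, and its promoter was not searched. These are letter matches within short windows and say nothing of which factor was bound.

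Before the levels, 2 properties of the libraries bear on them. Totals ran from 12983233 to 20218340 counts, and counts of mice within a group varied beyond sampling error, so each library was taken as a separate mouse. The labels give the mice as male, yet Xist, the RNA that coats the inactive X chromosome, was at 919.8 to 1340 CPM, counts scaled to the library total, in all 12 libraries and 4 Y-linked genes summed to 0 counts. The libraries thus go against the sex in the labels in the same way in every group. The Tau-acetate 3 library stood apart in transthyretin (Ttr), a choroid plexus transcript, at 399 CPM against 21.5 to 148 in the other libraries.

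Fbxo32 encodes atrogin-1, the substrate-binding subunit of a ubiquitin ligase known from muscle wasting and a classical FoxO target. It lies on the minus strand at chr15:58175879-58214932 (GENCODE M21). Its level was 43.3, 42.5 and 41.1 CPM in the PBS-control mice, 39.7, 35.6 and 33.2 CPM in the PBS-acetate mice, 32.9, 23.8 and 28.8 CPM in the Tau-control mice, and 38.9, 40.2 and 36.2 CPM in the Tau-acetate mice. Tau-control was the lowest group and overlapped with none of the others, and PBS-control was the highest and also overlapped with none. The means were 42.3 ± 1.12, 36.2 ± 3.32, 28.5 ± 4.55 and 38.4 ± 2.05 CPM (SD, n = 3 each) in that order of groups, and only PBS-acetate and Tau-acetate overlapped. On the log2 scale Tau-control differed from PBS-control by -0.57, and Tau-acetate differed from Tau-control by 0.43. In PBS-injected mice the diet difference was -0.23, so acetate-fed mice were lower after PBS and higher after tau. Of all genes tested, 13.5% had no overlap between Tau-control and PBS-control. Between diets this share was 26.3% after PBS and 14.4% after tau.

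Plin4 encodes perilipin 4, a coat protein of lipid droplets best known from fat tissue, and lies at chr17:56100591-56109803 on the minus strand. It is a low transcript here, with 25 to 101 counts a library. Its level was 3.67, 2.70 and 4.54 CPM in PBS-control, 2.78, 2.42 and 2.68 CPM in PBS-acetate, 2.02, 1.66 and 2.44 CPM in Tau-control, and 5.01, 4.66 and 5.65 CPM in Tau-acetate. The Tau-acetate mice were above all 9 others, and Tau-control overlapped with PBS-acetate but not with PBS-control. The group means were 3.64 ± 0.918, 2.63 ± 0.183, 2.04 ± 0.392 and 5.11 ± 0.504 CPM (SD, n = 3 each). Between tau- and PBS-injected mice the log2 difference was -0.85 on the control diet and 0.96 on the acetate diet. Between diets it was -0.48 after PBS and 1.33 after tau. Over all genes, tau and PBS groups did not overlap in 13.5% on the control diet and 16.2% on acetate.

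**Figure D1:**
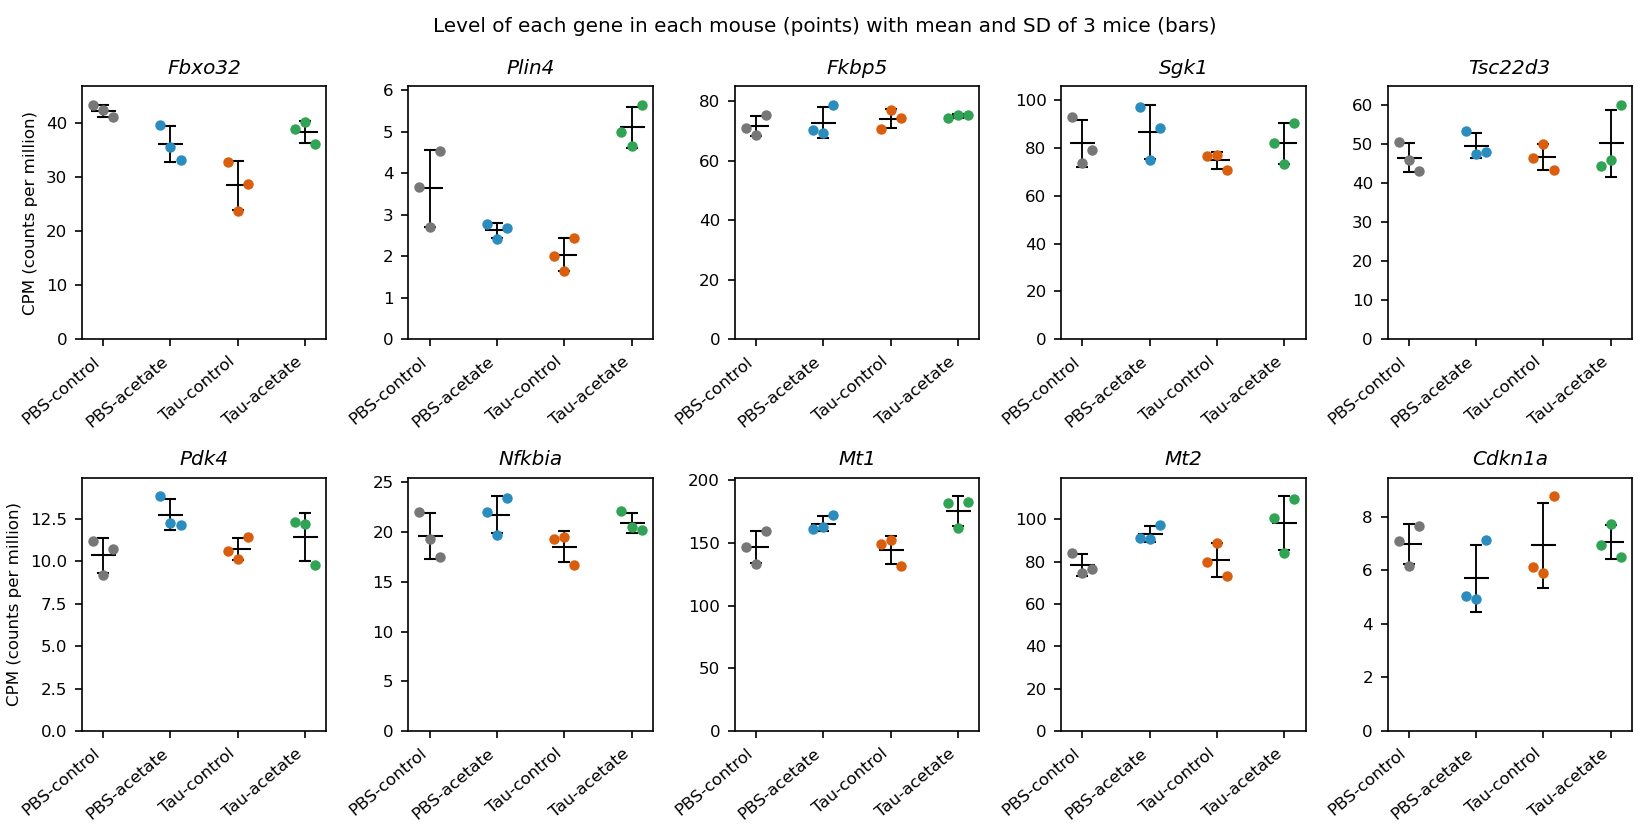
Level of each of the 10 genes in CPM (vertical axis, from 0) in the 4 groups; points are single mice, bars the mean and SD of 3 mice. Fbxo32 and Plin4 were lowest in Tau-control, and Fkbp5 lay between 68.6 and 78.8 CPM in all 12 mice.

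Markers of myelin-forming oligodendrocytes moved with Fbxo32. The summed level of 5 of them (Mbp, Mog, Mag, Mal and Cldn11) was 4133 ± 515 CPM in PBS-control, 2783 ± 431 CPM in PBS-acetate, 2659 ± 247 CPM in Tau-control and 3851 ± 869.8 CPM in Tau-acetate (SD, n = 3 each). Relative to the PBS-control mean this was 67.3%, 64.3% and 93.2%, while Fbxo32 was at 85.5%, 67.4% and 90.8% and Plin4 at 72.3%, 56.1% and 140% in the same 3 groups. All 5 markers had a negative log2 change for tau on the control diet and a positive one on the acetate diet, and 1, Cldn11, was called lower on acetate after PBS. The Tau-acetate 3 library was the lowest of its group in the marker sum (2882 CPM) and in Fbxo32 and the highest in Plin4. In bulk tissue, fewer cells of a type and less RNA per cell cannot be told apart, and the part of oligodendrocyte RNA in the Fbxo32 and Plin4 values was not tested.

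**Figure D2:**
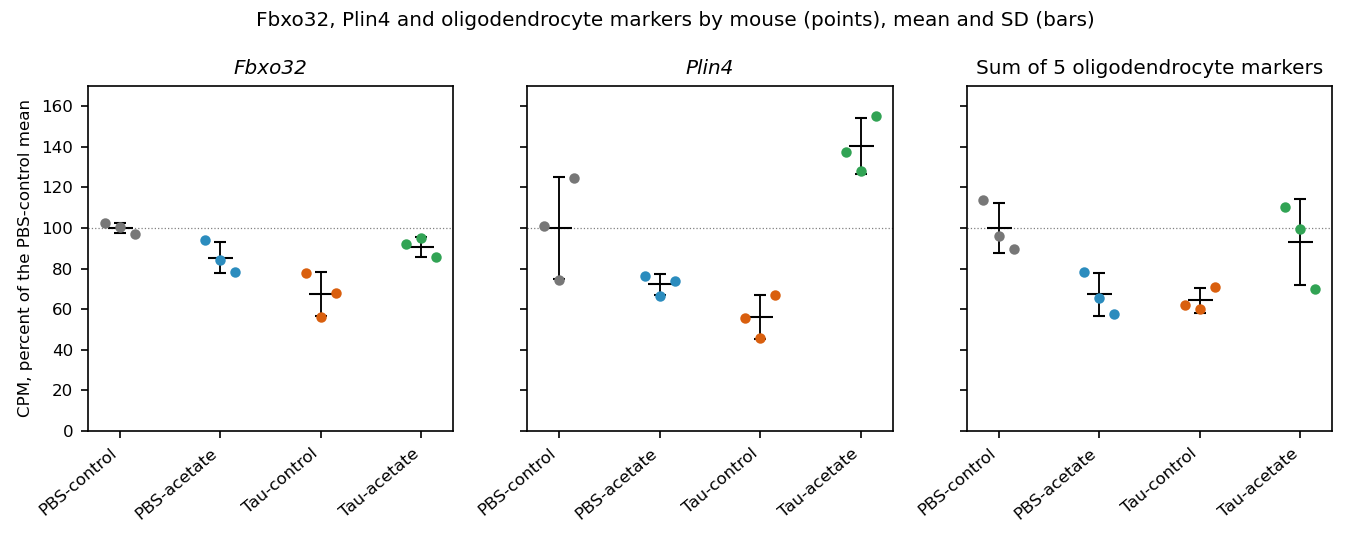
Fbxo32, Plin4 and the sum of 5 oligodendrocyte markers in each mouse as percent of the PBS-control mean (vertical axis, from 0), with group means and SD of 3 mice. Group means of Fbxo32 and of the marker sum had the same order, with Tau-acetate at 90.8% and 93.2%, while Plin4 in Tau-acetate was at 140%.

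Except for Acta1, markers of fat and muscle, where Plin4 and Fbxo32 are classically described, did not exceed 1 CPM. Among 5 adipocyte markers Lep and Cfd had 0 counts, Adipoq did not exceed 0.0605 CPM and Plin1 did not exceed 0.745 CPM. The sum of the 5 was 0 to 0.302 CPM in Tau-acetate, the group with the highest Plin4. Of 6 striated muscle genes, Ckm did not exceed 0.0663 CPM and Trim63, the partner ligase of Fbxo32 in muscle atrophy, did not exceed 0.175 CPM. Only Acta1 was above 1 CPM, at 4.43 to 6.49 CPM. The part of fat or muscle RNA in the Plin4 and Fbxo32 values was not tested.

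The genes with the pattern most like that of Fbxo32 over the 12 mice, by Pearson correlation of log2 CPM, were Kctd9 (r = 0.92), A330015K06Rik (0.91), Cln3 (0.90), Ptma (0.89) and Tpt1 (0.88). For Plin4 they were Cdk19 (0.86), Stard3 (0.85), Eva1c (0.85), Rgma (0.84) and Tex261 (0.84). Fbxo32 and Plin4 correlated with each other at r = 0.65, place 351 in the list of Fbxo32, and at 0.17 once each group's mean was removed. These are descriptions over mice that share the group pattern for which both genes were picked.

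The other 8 genes are classical readouts of the same pathways. Fkbp5, a chaperone of the glucocorticoid receptor that the receptor itself induces, had the narrowest range. It was at 71.0, 68.6 and 75.2 CPM in PBS-control, 70.2, 69.3 and 78.8 CPM in PBS-acetate, 70.8, 77.2 and 74.5 CPM in Tau-control, and 74.4, 75.3 and 75.5 CPM in Tau-acetate, so that all groups overlapped. Its log2 change for tau was 0.05 (95% interval -0.08 to 0.18) on the control diet and 0.05 (-0.08 to 0.17) on acetate, and its change for acetate was 0.02 (-0.11 to 0.15) after PBS and 0.02 (-0.11 to 0.15) after tau.

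Sgk1, a kinase that regulates ion transport, and Tsc22d3, which encodes the anti-inflammatory leucine zipper protein GILZ, are both direct glucocorticoid receptor targets. Sgk1 was at 92.7, 73.7 and 79.1 CPM in PBS-control, 97.0, 74.7 and 88.1 CPM in PBS-acetate, 76.6, 76.8 and 70.7 CPM in Tau-control, and 81.9, 73.1 and 90.3 CPM in Tau-acetate. The groups overlapped in every comparison, and the largest log2 change was -0.13 (95% interval -0.36 to 0.09), for tau on the control diet. Tsc22d3 was at 50.6, 45.9 and 43.2 CPM in PBS-control, 53.4, 47.5 and 48.0 CPM in PBS-acetate, 46.7, 50.01 and 43.3 CPM in Tau-control, and 44.6, 46.1 and 60.2 CPM in Tau-acetate. Its highest value was in the Tau-acetate 3 library, the one with 399 CPM of Ttr. With that library its log2 change on acetate after tau was 0.10 (-0.11 to 0.32), and without it -0.04. The part of choroid plexus RNA in that value was not tested.

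Pdk4, a kinase that switches off pyruvate dehydrogenase and a joint target of FoxO, glucocorticoid and PPAR signaling, was at 11.2, 9.19 and 10.7 CPM in PBS-control and 13.8, 12.3 and 12.1 CPM in PBS-acetate. These groups did not overlap, as in 26.3% of all genes. The log2 change of Pdk4 was 0.29 ± 0.12 (SE), with an adjusted p of 0.170 by edgeR's quasi-likelihood F test (Benjamini-Hochberg). After tau the values were 10.6, 10.1 and 11.4 CPM on the control diet and 12.3, 12.2 and 9.76 CPM on acetate, which overlapped. Cdkn1a, the cell cycle inhibitor p21 under FoxO and p53 control, was at 7.10, 6.18 and 7.65 CPM in PBS-control, 5.04, 4.95 and 7.16 CPM in PBS-acetate, 6.13, 5.90 and 8.77 CPM in Tau-control, and 6.94, 7.74 and 6.49 CPM in Tau-acetate. It was the one of the 8 with a negative change on acetate after PBS (-0.30, 95% interval -0.68 to 0.08), and all its groups overlapped. Nfkbia, the inhibitor IκBα, which glucocorticoids and NF-κB both induce, was at 22.0, 19.3 and 17.5 CPM in PBS-control, 22.0, 19.8 and 23.4 CPM in PBS-acetate, 19.3, 19.5 and 16.7 CPM in Tau-control, and 22.1, 20.5 and 20.2 CPM in Tau-acetate. The Tau-acetate mice were above the Tau-control mice without overlap, by 0.18 on the log2 scale (95% interval -0.03 to 0.39), which did not pass the test. Diets did not overlap after tau in 14.4% of all genes.

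Mt1 and Mt2, small proteins that bind zinc and copper and are induced by metals and glucocorticoids, lie 5513 bases apart on chromosome 8, at chr8:94179082-94180327 and chr8:94172664-94173568. Mt1 was at 147, 134 and 159 CPM in PBS-control and 161, 163 and 172 CPM in PBS-acetate, and at 149, 153 and 132 CPM in Tau-control and 182, 162 and 183 CPM in Tau-acetate. Every acetate-fed mouse was above every mouse on the control diet, whichever the injection. Within an injection the diets did not overlap in 26.3% of all genes after PBS and 14.4% after tau. The share over both injections together was not computed. The log2 change on acetate was 0.17 ± 0.07 after PBS and 0.28 ± 0.07 after tau (SE), with adjusted p of 0.162 and 0.182 by edgeR's quasi-likelihood F test (Benjamini-Hochberg).

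Mt2 was at 84.2, 74.4 and 76.2 CPM in PBS-control, 91.0, 90.8 and 97.4 CPM in PBS-acetate, 79.9, 88.9 and 73.2 CPM in Tau-control, and 101, 84.2 and 109 CPM in Tau-acetate. The diets did not overlap after PBS, as in 26.3% of all genes, and overlapped after tau, through Tau-acetate 2 and Tau-control 2. The log2 change was 0.25 ± 0.09 after PBS and 0.28 ± 0.09 after tau (SE), with adjusted p of 0.123 and 0.278 by the same edgeR test. Neither metallothionein passed the test within either injection.

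Because both genes had a change of similar size in both injections, the diet effect was also averaged over injections, a comparison chosen after these values were seen. There Mt1 was higher on acetate by 0.23 (95% interval 0.12 to 0.33), a change of 16.9%, with an adjusted p of 0.0225 by edgeR's quasi-likelihood F test (Benjamini-Hochberg). Mt2 was higher by 0.26 (0.13 to 0.40), a change of 20.0%, with an adjusted p of 0.0369 by the same edgeR test. These were 2 of the 8 tested genes, where 5.76% of all genes tested were called and 1.95% were called higher. An unadjusted p below 0.05 was reached by 4 of the 8, and by 18.0% of all genes. The other such genes, Pdk4 (0.19, 0.01 to 0.37) and Nfkbia (0.16, 0.01 to 0.31), were not called. The interaction of diet and injection was 0.11 (-0.10 to 0.31) for Mt1 and 0.03 (-0.23 to 0.30) for Mt2, and neither passed the test. Without the Tau-acetate 3 library the averaged changes were 0.22 and 0.23 and both genes were still called. Mt3, the brain metallothionein of the same cluster, gave -0.02 (-0.11 to 0.08).

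**Figure D3:**
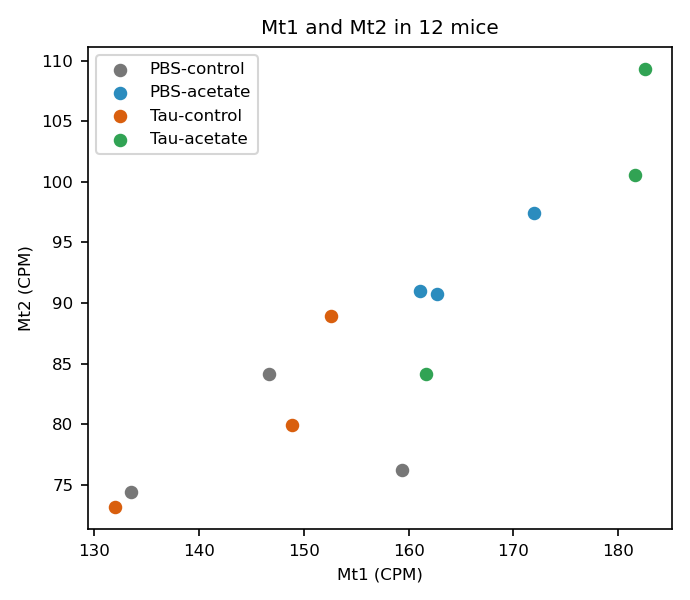
Mt1 (horizontal axis, CPM) against Mt2 (vertical axis, CPM), 1 point per mouse, colored by group; the axes do not start at 0. The 6 acetate-fed mice had 161 CPM of Mt1 or more, and the 6 mice on the control diet had 159 CPM or less. How many of all genes separate the diets this way was not computed.

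Metallothioneins are abundant in astrocytes, and 5 astrocyte markers summed to 1456 ± 49.8, 1468 ± 82.2, 1463 ± 63.5 and 1588 ± 63.6 CPM in the same order of groups as for Mt2 (SD, n = 3 each). For diet averaged over injections their median log2 change was 0.04, and 4 of the 5 were above 0, with 0 called. After PBS 2 of the 5 were called on acetate, Slc1a3 higher (0.23 ± 0.06, SE) and Aqp4 lower (-0.20 ± 0.06), and the interaction was called for Aqp4 (0.35 ± 0.09). The part of astrocyte RNA in the metallothionein values was not tested. Markers of the CA fields also differed between diets in PBS-injected mice. The 4 CA1 markers summed to 489 ± 67.7 CPM in PBS-control and 784 ± 115 CPM in PBS-acetate, with Fibcd1 and Mpped1 called higher, and the 4 CA3 markers to 218 ± 20.8 and 115 ± 45.4 CPM, with Iyd, Cpne9 and Nectin3 called lower (SD, n = 3 each). In tau-injected mice these sums were 670 ± 72.6 and 798 ± 151 CPM for CA1 and 155 ± 24.8 and 136 ± 30.4 CPM for CA3. For tau on the control diet all 4 CA1 markers had a positive log2 change and all 4 CA3 markers a negative one, with 0 called. On acetate 2 of the 4 CA1 markers and all 4 CA3 markers had a positive change for tau. The part of the sampled subfields in the diet and tau results, those of Fbxo32 and Plin4 included, was not tested. Mt1 and Mt2 have similar coding sequences, and reads matching both cannot be traced in gene counts.

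With a call set at an edgeR adjusted p below 0.1, 0 of the 8 tested genes passed in either tau comparison, where 0.0136% of all genes were called on the control diet and 0.136% on acetate. None had an unadjusted p below 0.05 there, and DESeq2 called 0. None of the 8 had groups of 3 mice without overlap in either tau comparison, while 13.5% and 16.2% of all genes did. For acetate after PBS 0 of the 8 were called where 8.84% of all genes were, with 3 at an unadjusted p below 0.05 (Mt1, Mt2 and Pdk4) and 0 called by DESeq2. Those 3 also had groups that did not overlap, as did 26.3% of all genes. For acetate after tau edgeR called 0 of 8 (0.0611% of all genes), with 2 at an unadjusted p below 0.05, and DESeq2 called 1, Mt1. There 2 of the 8, Mt1 and Nfkbia, did not overlap, against 14.4% of all genes. For the interaction 0 of 8 were called by either tool and 0 had an unadjusted p below 0.05, with 1.56% of all genes called. For tau averaged over diets, a comparison also chosen after the values were seen, edgeR called 0% of all genes, none of the 8 by either tool, with 927 genes and 0 of the 8 at an unadjusted p below 0.05, and DESeq2 called 7 genes.

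The median log2 change of the 8 genes was -0.0077 for tau on the control diet and 0.03 on the acetate diet, beside -0.00086 and -0.0035 over all genes. For acetate it was 0.12 after PBS and 0.12 after tau, beside 0.0042 and 0.00079 over all genes, with 7 of 8 and 8 of 8 above 0. The 2 tau comparisons and the 2 diet comparisons use the same 4 groups, so each group enters more than 1 of them and the values are not independent.

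**Figure D4:**
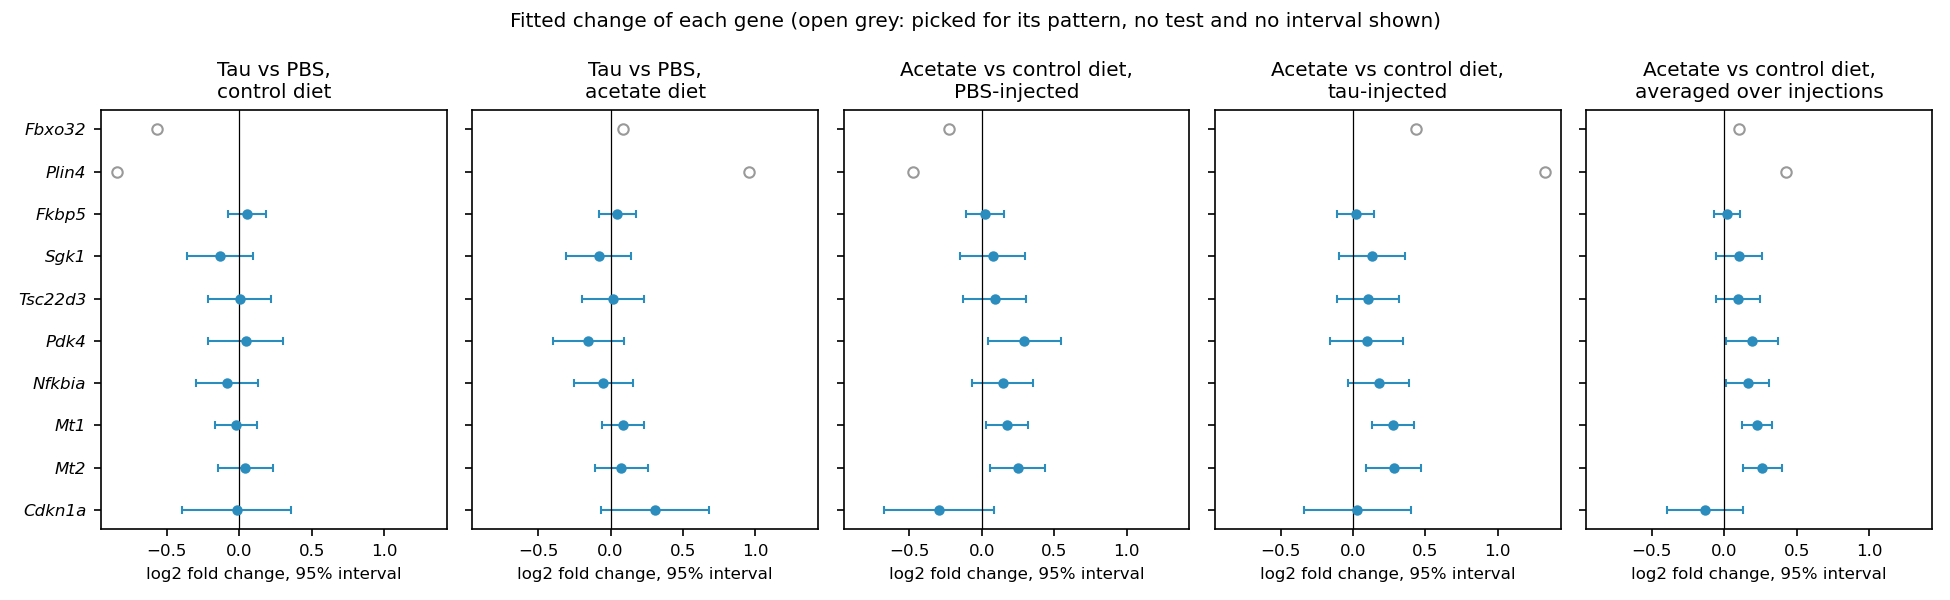
Log2 fold change (horizontal axis) of the 10 genes in 5 comparisons; filled points with bars are the 8 tested genes with 95% intervals, open grey points are Fbxo32 and Plin4, shown without interval. Intervals of Mt1 and Mt2 lay above 0 in the 3 diet panels, and all 8 intervals included 0 in both tau panels. The interval of Pdk4 also lay above 0 after PBS and in the averaged diet effect, and that of Nfkbia in the averaged diet effect.

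Levels compared per length of exon showed how unequal these genes are. Mt2 had 149 ± 18.9 CPM per kilobase and Mt1 127 ± 13.1 (SD, n = 12 mice), followed by Sgk1 (16.6 ± 1.77), Nfkbia (12.5 ± 1.22), Tsc22d3 (11.1 ± 1.11), Fkbp5 (7.75 ± 0.349), Fbxo32 (5.21 ± 0.840), Pdk4 (3.22 ± 0.372), Cdkn1a (1.88 ± 0.315) and Plin4 (0.580 ± 0.226). Neighbors in this order differed by more than the sum of their SDs except Mt2 and Mt1, and Nfkbia and Tsc22d3. The order of Mt2 and Mt1 rests on the annotated exon length, 588 bases for Mt2 and 1246 for Mt1, which is the whole span of Mt1. In CPM alone Mt1 was higher, with a mean of 158 against 87.5 over the 12 mice. Other places in the order also rest on exon length, 9468 bases for Fkbp5 and 1610 for Nfkbia. In CPM Fkbp5 (mean 73.4) was above Tsc22d3 (48.3), Fbxo32 (36.3) and Nfkbia (20.2). Relative to its mean Plin4 had the widest spread and Fkbp5 the narrowest.

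Among the 8 tested genes, 28 pairs were correlated over the 12 mice, and 21 had a Pearson r above 0. Mt1 and Mt2 were the closest pair, with r = 0.89 (permutation p = 0.00016, adjusted p = 0.00448) and Spearman rho = 0.87 (permutation p = 0.00037, adjusted p = 0.0104). Their r was 0.82 without the 2 mice farthest from the median of Mt1 and 0.72 after each group's mean was removed. Nfkbia and Mt2 gave r = 0.68 (permutation p = 0.0162, adjusted p = 0.0907) and rho = 0.80 (permutation p = 0.003, adjusted p = 0.042), with r = 0.53 without the 2 farthest mice and 0.52 within groups. Sgk1 with Tsc22d3 (r = 0.69) and Sgk1 with Nfkbia (r = 0.69) had adjusted permutation p of 0.0907 by Pearson and 0.128 by Spearman. Without their 2 farthest mice r was 0.63 and 0.62, and within groups 0.71 and 0.59. Tsc22d3 with Mt2 (r = 0.67, adjusted permutation p = 0.0907) had rho = 0.63 (adjusted permutation p = 0.132). Its r was 0.40 without the 2 farthest mice and 0.66 within groups. Fkbp5 took part in none of the 5 pairs. The permutations shuffled all 12 mice across the 4 groups, so their p also takes in group differences that both genes of a pair share. The r within groups was not tested.

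Genes of the same pathways were then read from 10 lists with 106 genes tested. In the tau comparisons edgeR called 0 of the 106 on the control diet and 0 on the acetate diet, with 17 and 12 at an unadjusted p below 0.05, where 9.65% and 10.3% of all genes had one, and DESeq2 called 1 in each, Tnfaip3 on the control diet and Zbtb16 on acetate. For acetate after PBS 15 of the 106 were called, where 8.84% of all genes were, and after tau 1 was, where 0.0611% of all genes were.

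For the receptors themselves, Nr3c1, the glucocorticoid receptor, lay between 117 and 141 CPM and Nr3c2, the mineralocorticoid receptor, between 265 and 329 CPM in all 12 mice. Of the 9 genes of the receptor and chaperone list, 2 were called lower on acetate after PBS, where 4.85% of all genes were. They were the heat shock protein Hsp90aa1 (-0.23 ± 0.05, SE) and its co-chaperone Ptges3 (-0.24 ± 0.07). Both were also called lower in the diet effect averaged over injections (-0.19 and -0.25), where 3.81% of all genes were. The list's median change after PBS was -0.08 against 0.0042 for all genes.

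Of 21 other glucocorticoid-induced genes, 4 were called higher on acetate after PBS and 0 lower, where 3.99% and 4.85% of all genes were. The log2 change was above 0 in 16 of the 21. Per1, a clock gene with a glucocorticoid response element, was at 76.6, 64.6 and 61.1 CPM in PBS-control and 108, 103 and 91.6 CPM in PBS-acetate, without overlap. Its log2 change was 0.58 ± 0.08 (SE), with an adjusted p of 0.00448 by edgeR's quasi-likelihood F test (Benjamini-Hochberg). Of all genes, 26.3% did not overlap between these PBS groups. The other 3 called were Bcl6, a transcriptional repressor (0.38 ± 0.09), Ddit4, an inhibitor of mTOR signaling (0.35 ± 0.07), and Klf15, a regulator of amino acid and glucose metabolism (0.31 ± 0.09). After tau the one gene called higher was Arrdc2, an arrestin-domain protein (0.53 ± 0.10), at 11.1, 11.1 and 11.1 CPM in Tau-control and 16.3, 15.2 and 16.5 CPM in Tau-acetate. After tau 0.0611% of all genes were called. In the diet effect averaged over injections, chosen after the values were seen, 5 of the 21 were called higher and 0 lower. Over all genes these shares were 1.95% and 3.81%. The 5 were Per1, Arrdc2, Bcl6, Ddit4 and Klf15, and the list median was 0.21 against 0.0073 for all genes. The CA1 and CA3 marker sums given above differed between the same PBS groups.

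Among the FoxO factors, Foxo1 lay between 48.3 and 64.8 CPM and Foxo3 between 25.9 and 42.3 CPM over the 12 mice. After PBS, 1 of the 12 genes of the list of FoxO factors and upstream kinases was called lower on acetate, the receptor Igf1r (-0.32 ± 0.10), and 0 were called higher. Of 19 other FoxO targets 2 were called higher (Bcl6 and Klf15, which also belong to the glucocorticoid list) and 3 were called lower. The 3 were the mitophagy receptor Bnip3 (-0.27 ± 0.08), the cell cycle inhibitor Cdkn1b (-0.25 ± 0.07) and the transcriptional coactivator Cited2 (-0.27). Over all genes 3.99% were called higher and 4.85% lower. The list's median after PBS was -0.08. In the diet effect averaged over injections 4 of the 19 were called higher, where 1.95% of all genes were, and 2 were called lower, where 3.81% were. The 4 were Bcl6 (0.29), Klf15 (0.23), Txnip (0.25), which encodes an inhibitor of thioredoxin, and Pik3ip1 (0.18), an inhibitor of PI3 kinase, and the 2 were Bnip3 (-0.19) and Cited2 (-0.19), with a list median of -0.01.

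The partners of Fbxo32 and Plin4 were looked at in the same way. The scaffold and RING subunits of the Fbxo32 ligase, Cul1 and Rbx1, had log2 changes for tau on the control diet of 0.03 (95% interval -0.08 to 0.13) and -0.02 (-0.15 to 0.11). The adaptor Skp1a was at -0.14 ± 0.04 for diet averaged over injections, with an adjusted p of 0.0657 by edgeR's quasi-likelihood test. The list of perilipins and PPAR-responsive lipid genes had 11 genes tested and 0 called by edgeR or DESeq2 in any of the 7 comparisons, with 0 to 3 at an unadjusted p below 0.05. Plin3, another perilipin, had a log2 change of 0.27 (0.06 to 0.48) on acetate after tau and -0.18 (-0.39 to 0.03) after PBS, which did not pass the test.

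Smaller lists around the remaining genes gave 0 to 3 calls a list for diet, and 0 in each list for acetate after tau. Of all genes tested, 4.85% were called lower and 3.99% higher on acetate after PBS. In the averaged diet effect 3.81% were called lower and 1.95% higher. Around Pdk4, 1 of 9 pyruvate dehydrogenase genes was called lower on acetate after PBS, the E2 subunit Dlat (-0.25 ± 0.06). In the averaged diet effect 3 were called lower (Dlat, Pdha1 and Pdhb), with a list median of -0.11. Around the metallothioneins, the zinc importer Slc39a10 was lower on acetate after PBS (-0.22 ± 0.06) and in the averaged effect (-0.21 ± 0.04), opposite in direction to Mt1 and Mt2, and the metal-sensing factor Mtf1 was not called. Around Nfkbia, the ubiquitin editor Tnfaip3 was higher on acetate after PBS (0.67 ± 0.18) and the inhibitor Nfkbie lower (-0.77 ± 0.25), of 10 genes. Around Cdkn1a, 1 of 10 p53 genes was called, Phlda3, a p53-induced inhibitor of Akt (-0.40 ± 0.12 on acetate after PBS).

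The diet effect of 3 of the 106 list genes differed between injections by edgeR's interaction test, where 1.56% of all genes were called. Phlda3 was at 15.9, 15.4 and 17.1 CPM in PBS-control, 12.98, 11.4 and 12.4 CPM in PBS-acetate, 14.3, 10.7 and 10.99 CPM in Tau-control, and 15.8, 15.5 and 13.2 CPM in Tau-acetate. Its interaction was 0.71 ± 0.17, with an adjusted p of 0.0640 by edgeR's quasi-likelihood test, and its order of group means was that of Fbxo32. Per1 (-0.44 ± 0.11) and Tnfaip3 (-0.92 ± 0.24) had interactions of the opposite sign, with adjusted p of 0.0917 and 0.0902 by the same edgeR test.

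**Figure D5:**
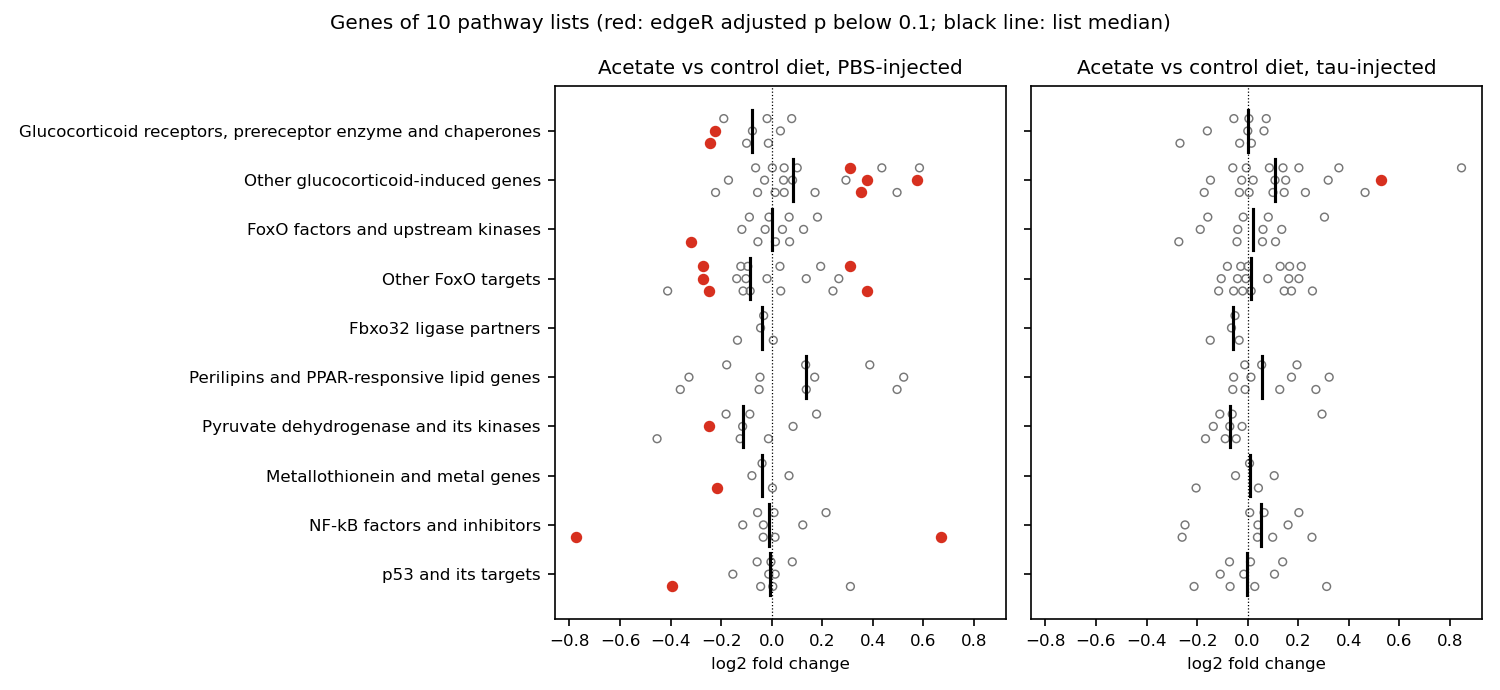
Log2 fold change on acetate (horizontal axis) of the genes of 10 lists (rows) in PBS-injected (left) and tau-injected mice (right); circles are genes, red ones called by edgeR at an adjusted p below 0.1, black lines list medians. On the left 4 of 21 glucocorticoid-induced genes were called higher, and on the right the one called gene was Arrdc2.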

How the data were processed

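RNA of 12 dorsal hippocampi was sequenced as stranded poly(A) libraries. Per the labels and the study's methods, the authors aligned reads with STAR 2.5.2a to GRCm38, used SAMtools 1.1, counted reads on exons by strand with HTSeq 0.9.1 and deposited raw counts per gene. Of 24985 genes 5357 had no count, and 0 value columns lacked a sample. Groups came from the sample labels.

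Counts were filtered by filterByExpr (minimum count 10, minimum total 15). All 12 mice were fitted with 1 mean per group in edgeR 4.0.16 (robust quasi-likelihood F test, TMM, R 4.3.3), leaving 8 residual degrees of freedom, and Benjamini-Hochberg adjustment ran over 14742 genes, with calls below 0.1. The step was tested on simulated data. CPM values are after TMM. Intervals are 95% and cover the spread between mice, whose biological coefficient of variation was 7.25%. Correlations used log2 CPM (prior count 2) and 100000 two-sided permutations, adjusted over 28 pairs. The named list genes are up to 4 called members of a list with the smallest p, or the 2 with the smallest p where none was called. Alternatives were DESeq2 1.42.0, its size factors, no filter, the 6 compared mice alone, a replicate block, a threshold of 0.05 and each mouse left out. The genes and lists were chosen with earlier results of these data known, and 2 comparisons averaged over diets or injections were added after the values were seen. Replicate numbers did not pair mice: correlations of same-numbered deviations ran from -0.105 to 0.144. Exon lengths were taken from GENCODE M21, and promoter windows from RefSeq. From the lists, 1 pathway gene and 1 cell type marker are not reported here.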

Additional observations from a re-analysis of the deposited data

Results flagged for a closer look

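The diet effect on Fbxo32 went opposite ways in the 2 injections: every PBS-acetate mouse was below every PBS-control mouse, and every Tau-acetate mouse was above every Tau-control mouse, a difference of 0.66 on the log2 scale. This difference was not tested, since Fbxo32 was chosen for it. The diets did not overlap in 26.3% of all genes after PBS and in 14.4% after tau. For Plin4 the diet effect also went opposite ways, at -0.48 after PBS, where the groups overlapped, and 1.33 after tau. Its tau effect did so without overlap, lower in every mouse on the control diet and higher in every mouse on acetate. The difference was 1.80 for both effects and was not tested, since Plin4 was chosen for its pattern. Tau and PBS groups did not overlap in 13.5% of all genes on the control diet and 16.2% on acetate. Besides, 3 of the 106 list genes had a diet effect that differed between injections by edgeR's interaction test. They were Per1 (-0.44), Tnfaip3 (-0.92) and Phlda3 (0.71), and 1.56% of all genes were called.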

How the results depend on the processing

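The calls of Mt1 and Mt2 in the averaged diet effect held under every alternative run, with adjusted p of 0.0027 to 0.0678 for Mt1 and 0.0045 to 0.0986 for Mt2 over those alternatives. Within 1 injection the calls depended on the setting. For acetate after PBS, 1 of the 8 genes, Mt2, was called with edgeR or DESeq2 on the 6 compared mice, and the range over mice left out was 0 to 1 (Mt2, without Tau-control 2, Tau-acetate 2 or Tau-acetate 3). For acetate after tau 1 gene, Mt1, was called without a filter and by DESeq2 on 12 or 6 mice, and the range over mice left out was 0 to 1 (Mt2, without Tau-acetate 2).

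Over all genes, calls for tau on the control diet went from 2 to 9 with a replicate block, 86 with DESeq2 on 12 mice, 170 with DESeq2 and 35 with edgeR on 6 mice, 0 at a threshold of 0.05, and 0 to 16 with a mouse left out. For tau on acetate they went from 20 to 37 without a filter, 121 and 135 with DESeq2 on 12 and 6 mice, 0 at 0.05 and 0 to 93 with a mouse left out. For acetate after PBS they went from 1303 to 541 at 0.05 and 15 to 1425 with a mouse left out. For acetate after tau they went from 9 to 56 without a filter, 176 and 135 with DESeq2 on 12 and 6 mice, 2 with edgeR on 6 mice, 3 at 0.05 and 1 to 66 with a mouse left out. For the interaction they went from 230 to 349 with a replicate block, 438 with DESeq2, 43 at 0.05 and 8 to 442 with a mouse left out. For the averaged diet effect they went from 849 to 389 at 0.05 and 221 to 1092 with a mouse left out, and for the averaged tau effect from 0 to 7 with DESeq2. The causes were not tested. The replicate block changed no call among the 8 genes.

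Changes near 0 turned sign when single mice were left out, and none of them was called. For tau on the control diet these were Tsc22d3 (-0.051 to 0.066), Pdk4 (-0.027 to 0.10), Nfkbia (-0.16 to 0.011), Mt1 (-0.080 to 0.045), Mt2 (-0.034 to 0.11), Cdkn1a (-0.22 to 0.089). For tau on acetate these were Sgk1 (-0.18 to 0.0083), Tsc22d3 (-0.13 to 0.098), Nfkbia (-0.12 to 0.011), Mt2 (-0.010 to 0.17). For acetate after PBS these were Fkbp5 (-0.039 to 0.062), Sgk1 (-0.0075 to 0.18). For acetate after tau these were Fkbp5 (-0.010 to 0.047), Tsc22d3 (-0.038 to 0.19), Cdkn1a (-0.076 to 0.23). For the interaction these were Fkbp5 (-0.042 to 0.056), Sgk1 (-0.047 to 0.14), Tsc22d3 (-0.13 to 0.096), Nfkbia (-0.061 to 0.11), Mt2 (-0.053 to 0.13). For the averaged diet effect these were Fkbp5 (-0.011 to 0.042). For the averaged tau effect these were Plin4 (-0.023 to 0.15), Tsc22d3 (-0.065 to 0.050).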
